A study of Mus musculus with 74 samples.

Results

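The genes described here encode the protein parts of ribosomes and the factors that run translation. Probes were taken where the platform annotation gave a single mouse gene symbol of the forms Rpl, Rps, Mrpl, Mrps, Eif1 to Eif6 or Eef1 and Eef2 followed by the usual letters and digits, and the Rps6k kinases were left out. This gave 87 of the 8976 probes on the array, for 76 of 5844 named genes. The cytosolic ribosomal class has 18 probes for 18 genes, the mitochondrial ribosomal class 40 probes for 34 genes, and the factor class 29 probes for 24 genes. The class names rest on the symbols alone, so the factor class also holds kinases that act on factors (Eif2ak3, Eif2ak4 and Eef2k) and a factor inhibitor (Eif4ebp2).

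Cytosolic ribosomes make nearly all cell protein, and their subunits are encoded by abundant messages that in mammals often begin with a run of pyrimidines, through which the mTOR kinase controls their translation. Mitochondrial ribosomes are built from a separate set of nuclear genes and translate the few messages of the mitochondrial genome. Initiation factors (Eif) bring the first tRNA and the small subunit to the message, elongation factors (Eef) add amino acids, and TGF-β is a secreted growth regulator whose receptors signal through the Smad proteins and also through MAP kinases.

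RNA of mouse cells was compared on 74 dual-channel arrays, which give for each probe the ratio of both channels. The labels name 5 lines, S2WT, S3WT, S2KO, S3KO and U0126, and 5 times, 0, 0.3, 1, 2 and 4 h, with 3 arrays per group and 2 for S3KO at 1 h. By the labels channel 1 held RNA without TGF-β and channel 2 RNA of the same line with TGF-β, and at 0 h neither channel had TGF-β, so the 0 h arrays measure the ratio that a probe shows with no difference in TGF-β. The labels do not spell out S2 and S3; the names match published work on Smad2 and Smad3 knockout cells with their own wild types. U0126 is an inhibitor of the kinase MEK, and the arrays of that name carry S2WT beside U0126 in their labels. Those labels do not settle whether the channels also differ in the inhibitor. Below, "untreated" means an array at 0 h, with no TGF-β in either channel, and says nothing about the inhibitor on the U0126 arrays. The labels give no tissue, passage, clone, dose or cell number, do not say that replicates were separate cultures, name no TGF-β for either channel of S3KO at 0.3 h although the titles place those arrays in the time course, and give 2 h in a source name of the S2WT 4 h arrays. The p-values below therefore reflect only how far replicate arrays differ, and that difference may be technical. Because these are cell populations, a change in the mix of cells and a change in RNA per cell cannot be told apart.

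All values are log2 ratios, taken as channel 2 over channel 1, with the median probe of each array set to 0. That direction is likely and not stated in the labels. A ratio says nothing of how abundant a message is, so levels of different genes are not compared. Arrays held 7688 to 8713 measured probes, and replicates of a group correlated with each other at r from -0.05 to 0.38. In the mean of 5 cytosolic ribosomal probes described below, 3 S3KO arrays stood apart (0 h replicates 1 and 2 and 1 h replicate 2). For the whole cytosolic class the lowest median, -0.06, was instead that of S3KO 4 h replicate 2. Of the 12 or 13 tested probes for TGF-β-induced genes, 5 were called higher late after treatment in S2KO, 2 in S2WT, 1 in S3WT and 0 in S3KO and U0126, where 0 and 4 had an unadjusted p under 0.05. Of the few marker probes for leukocytes, epithelium and endothelium none was called in any late response, and no erythroid marker was on the array. Below, "called" means an adjusted p under 0.05 in limma's moderated test, fitted over all probes with Benjamini-Hochberg adjustment, and the percentage beside a comparison is the share of all tested probes that it called.

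Promoter sequence of the genes on which the results turn is shown first, with pyrimidine runs near the annotated start marked where present. RefSeq promoter windows on build GRCm38.p6 were found for 64 of the 76 genes. In the lines that follow, each stretch runs from 25 bases before to 30 bases after the annotated start of the gene, in the direction of transcription, and capitals mark each run that begins with C, continues with at least 5 letters that are C or T, and begins within 20 bases of the start. Rplp2 lies at chr7:141447626-141447680 (+), Rpl38 at chr11:114668555-114668609 (+), Rps15a at chr7:118116118-118116172 (-), Rpl9 at chr5:65391402-65391456 (-), Rps6 at chr4:86857338-86857392 (-), Mrpl57 at chr14:57826214-57826268 (+) and Eif2b2 at chr12:85219456-85219510 (+).
Rplp2: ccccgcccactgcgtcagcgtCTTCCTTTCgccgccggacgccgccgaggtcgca
Rpl38: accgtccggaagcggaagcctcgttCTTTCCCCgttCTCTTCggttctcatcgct
Rps15a: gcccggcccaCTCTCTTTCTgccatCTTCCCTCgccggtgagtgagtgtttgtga
Rpl9: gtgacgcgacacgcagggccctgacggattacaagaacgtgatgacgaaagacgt
Rps6: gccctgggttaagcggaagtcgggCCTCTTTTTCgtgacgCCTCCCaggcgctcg
Mrpl57: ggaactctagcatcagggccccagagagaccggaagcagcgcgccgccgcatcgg
Eif2b2: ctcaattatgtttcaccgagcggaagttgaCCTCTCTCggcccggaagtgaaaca
The run was present for 10 of 13 cytosolic ribosomal genes with a window (76.9%), 11 of 29 mitochondrial ribosomal genes (37.9%) and 9 of 22 factor genes (40.9%), counting a gene when any of its windows held it. Of all 27025 genes with RefSeq windows, 35.4% held it. Rpl9, whose values below are close to those of Rplp2 and Rpl38, had no match in its window. A counted run may begin up to 20 bases before or after the annotated start, so it need not be the first bases of the message. The match describes these letters only, since the arrays measured RNA amount and not translation. No window was found for Rpl5, Rpl8, Rpl17, Rpl21, Rps4l, Mrpl15, Mrpl19, Mrpl38, Mrpl54, Mrps28, Eef1g and Eif1a.

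Across the arrays the 3 classes kept an order, and they kept it without TGF-β. The median of the cytosolic ribosomal class lay above the array median on 71 of 74 arrays and that of the mitochondrial class on 67, while the factor median did so on 33. On the values as deposited, without centring, these counts were 50, 33 and 16, so the position against 0 depends on the centring. Centring takes the same value from every probe of an array, so it cannot change the order of the classes there. The cytosolic median was above the factor median on 70 of 74 arrays and above the mitochondrial median on 57, and the full order of cytosolic, mitochondrial and factor held on 49. Over all arrays the cytosolic class median ranged from -0.06 to 0.59 with a median of 0.25, the mitochondrial from -0.06 to 0.48 with a median of 0.15, and the factor class from -0.35 to 0.38 with a median of -0.02.

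On the 15 arrays without TGF-β in either channel the same order was seen. The cytosolic median was above 0 on 13 of them and above the factor median on 13, with a median of 0.20. On the 44 arrays at 1, 2 and 4 h it was above 0 on 43 and above the factor median on 42, with a median of 0.23. The class median thus lay above the array median on most arrays without TGF-β and on most treated ones.

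**Figure D1:**
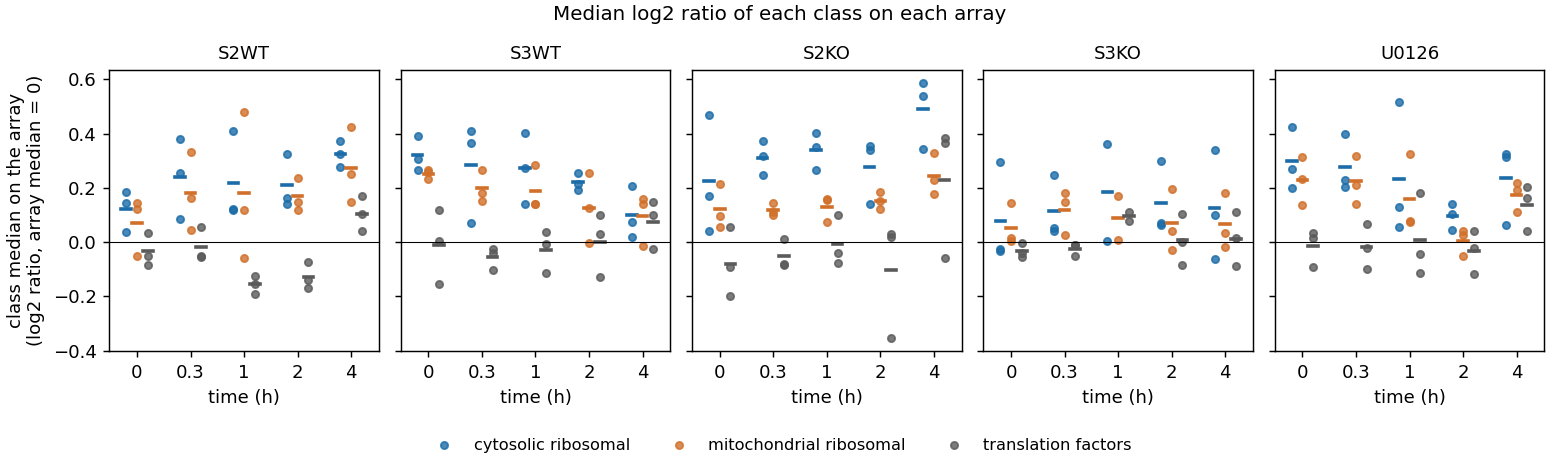
Median log2 ratio (array median = 0) of the 18 cytosolic ribosomal, 40 mitochondrial ribosomal and 29 factor probes on each of 74 arrays, by line and time in hours; points are arrays and bars the mean of a group of 3 (2 for S3KO at 1 h). The cytosolic points lie above 0 on 71 of 74 arrays, and on 13 of the 15 arrays at 0 h.

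By line, the cytosolic class median over the arrays was highest in S2KO (0.35), followed by S3WT (0.25), U0126 (0.20), S2WT (0.19) and S3KO (0.07), with ranges that overlap. In S2WT it was 0.12 ± 0.08 at 0 h and 0.33 ± 0.05 at 4 h (SD, n = 3 each). In S2KO it was 0.23 ± 0.22 at 0 h and 0.49 ± 0.13 at 4 h (n = 3 each). In S3WT the values ran the other way, from 0.32 ± 0.06 at 0 h to 0.10 ± 0.10 at 4 h. In U0126 they were 0.30 ± 0.12 at 0 h, 0.10 ± 0.05 at 2 h and 0.23 ± 0.15 at 4 h. In S3KO the 0 h mean of 0.08 ± 0.19 came from arrays at -0.03, -0.02 and 0.30, so the SD of the 0 h replicates there exceeds the difference of any later group mean from the 0 h mean.

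Single probes kept much of their value between the 0 h and the treated arrays. Across the 18 cytosolic probes the mean over the 0 h arrays and the mean over the 1, 2 and 4 h arrays correlated at r = 0.70, across the 40 mitochondrial probes at 0.64 and across the 29 factor probes at 0.84. Over all probes the same correlation was 0.56; these are correlations across probes, which share arrays and are not independent. The mean at 0 h was positive for 14 of 18 cytosolic, 30 of 40 mitochondrial and 12 of 29 factor probes (47.2% of all probes), and the treated mean for 14, 29 and 15.

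**Figure D2:**
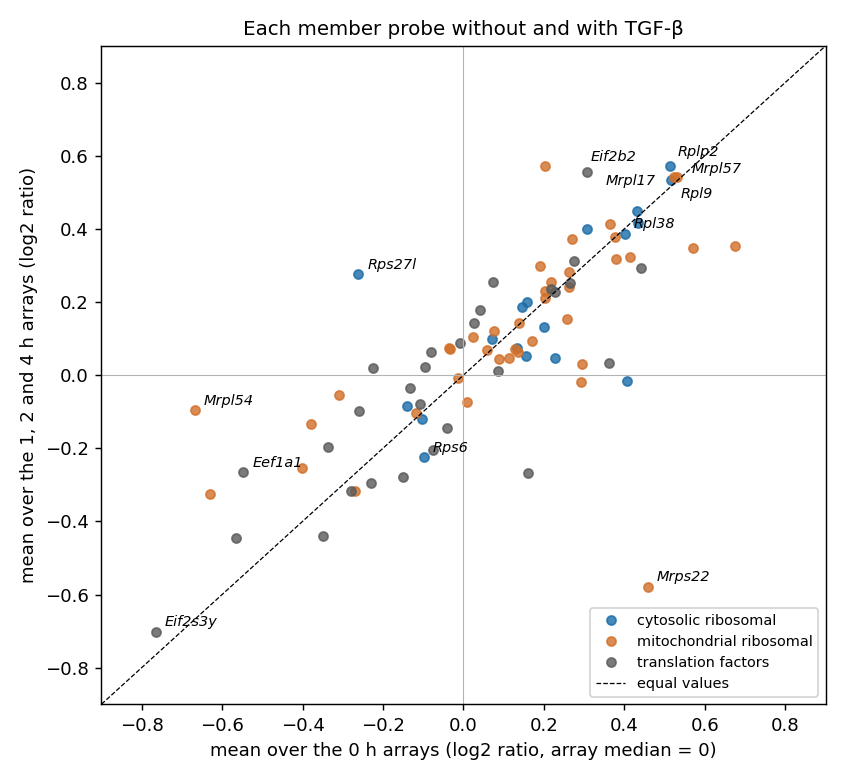
Each of the 87 probes by its mean log2 ratio over the 0 h arrays (horizontal axis) and over the 1, 2 and 4 h arrays (vertical axis), coloured by class, with a dashed line of equal values. Rplp2, Rpl9, Mrpl17 and Mrpl57 lie near the line above 0.5 on the horizontal axis, and Mrps22, whose values scatter widely, lies farthest below it.

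The cytosolic probes with the highest values on untreated arrays were Rpl9 and Rplp2, proteins of the large subunit, Rplp2 belonging to its acidic stalk. The probe for Rplp2 read 0.46, 0.51 and 0.81 on the S3WT 0 h arrays, 1.10, 0.54 and 0.28 on those of S2KO, 1.21, 0.62 and 1.30 on those of U0126, and 0.49, 0.63 and -0.01 on those of S2WT. On the S3KO 0 h arrays it read -0.40, -0.31 and 0.50. It was thus positive on 12 of 15 untreated arrays, and the negative ones are S3KO replicates 1 and 2 and S2WT replicate 3. On the treated arrays it ran from 0.08 to 1.13 in S2WT (median 0.66, n = 9), 0.18 to 0.65 in S3WT (0.40, n = 9), 0.56 to 1.25 in S2KO (0.88, n = 9), -0.32 to 0.86 in S3KO (0.49, n = 8) and 0.20 to 0.91 in U0126 (0.57, n = 9). The treated and untreated arrays overlapped in every line.

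Rpl9 averaged 0.52 over the 0 h arrays and 0.53 over the 1, 2 and 4 h arrays, and was positive on 13 of 15 and 43 of 44 of them. Rps15a, a small-subunit protein, averaged 0.43 and 0.45 and was positive on 14 of 15 and 44 of 44. Rpl38 averaged 0.40 and 0.39 and was positive on 13 of 15 and 42 of 44. Rpl8 averaged 0.43 and 0.41. By contrast Rps6, the small-subunit protein phosphorylated by S6 kinases, averaged -0.10 at 0 h and -0.22 on treated arrays and was positive on 5 of 15 and 13 of 44, so it lay on the other side of the array median from those genes. Among the cytosolic probes measured on every array, Rpl23 and Rpl38 varied least (SD 0.24 and 0.25 over 74 arrays) and Rpl35 and Rplp2 most (0.54 and 0.34).

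Of the mitochondrial class, Mrpl57 averaged 0.53 at 0 h and 0.54 on treated arrays, and Mrpl17 0.52 and 0.54, each positive on 13 of 15 and 42 of 44. Mrps30 averaged 0.38 and 0.32, Mrpl55 0.36 and 0.41 and Mrps11 0.38 and 0.38. Mrpl1 was the opposite case, at -0.40 and -0.25. Mrpl32 probe 7778 and Mrpl27 varied least (SD 0.19 and 0.20 over 74 arrays), and Mrpl1 and Mrpl38 probe 2214 most (0.60 each).

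In the factor class, Eif2b2, a subunit of the exchange factor that recharges eIF2, averaged 0.31 at 0 h and 0.55 on treated arrays, and the RNA helicase Eif4a3 averaged 0.28 and 0.31. Eif4h, which stimulates the helicase of cap-dependent initiation, averaged 0.26 and 0.25. Eef1b2, the exchange factor of eEF1A, averaged 0.22 and 0.24 and, with an SD of 0.20, varied less over the 74 arrays than any other factor probe measured on all of them; Eif4e2 probe 7669 came next (0.23). Eif3m (0.69) and Eif2ak3 probe 7722 (0.78) varied most. Values below the array median came from Eif2a on both probes (-0.57 and -0.35 at 0 h), Eef1a1 (-0.55), which delivers aminoacyl-tRNA to the ribosome, and Eif2s3y, the Y-linked copy of an eIF2 subunit (-0.76).

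Tested against 0, single probes of these classes were called on the 0 h arrays in 4 lines. In U0126 the channels of these arrays may also differ in the inhibitor. In U0126 13 of 87 were called, against 5.34% of all probes: Rplp2 (1.04 ± 0.17, SE, adjusted p = 0.000304), Rpl9, Rpl38, Rps15a, Mrpl57, Mrpl17, Mrps30 and Eef1b2 above 0 and Eef1a1 and Eif2s3y below 0, and 3 more mitochondrial probes above 0. In S3WT 9 of 84 were called (3.01% of all): Rpl38, Rpl9, Rpl8, Rps15a, Rplp2, Rpl36a, Mrps30 and Mrpl57 above 0 and Eif1ax, which helps the small subunit scan, below. In S2KO 9 of 85 were called (4.66%): Mrpl17, Mrpl55, Mrpl57, Rplp2, Mrps11, Eif2b2, Rps4l and Mrps30 above 0 and Eif2b1 below. In S3KO 2 of 85 were called (3.24%), Mrpl34 above 0 and Mrpl49 below, each from 2 measured arrays. In S2WT none of 85 was called (0.297%), with 10 at an unadjusted p under 0.05.

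These calls rest on 2 or 3 arrays each. Left with 2 arrays of U0126, the calls of Rplp2, Rpl9, Rpl38 and Mrpl57 remained in each of the 3 fits. Eef1a1 was no longer called without replicate 3, which read -3.20 beside -0.30 and -0.34. Mrpl17, Mrps30 and Rps15a were not called without replicate 1. Eef1b2, Eif2s3y, Mrpl27, Mrps11 and Mrps18b probe 3250 were called in 0 of the 3 fits. In S3WT Rplp2, Rpl9, Rpl8 and Mrpl57 were called in 0 of 3 fits, and the other members called there in 1 or 2. When an array was left out, 2 or 3 members were called in S3WT, 2 to 11 in S2KO and 5 to 9 in U0126. The share of all probes called in those fits is not given here. The calls of Eif1ax in S3WT and Eif2b1 in S2KO each rest on a single array (-2.37 in replicate 1 and -2.67 in replicate 2).

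After TGF-β, no ribosomal protein or translation factor probe was called in the late response of any line, which is the mean of the 1, 2 and 4 h groups minus the line's own 0 h group. In S2WT 0 of 83 tested members were called, against 0.192% of all probes, and 5 had an unadjusted p under 0.05. In S3WT it was 0 of 82 (0.12% of all; 3 under 0.05 unadjusted), in S2KO 0 of 84 (0.515%; 5), in S3KO 0 of 84 (1.53%; 7) and in U0126 0 of 85 (0.0719%; 10). At an unadjusted p under 0.05, 530 of 8349 of all probes passed in U0126, 650 of 8331 in S2WT, 456 of 8340 in S3WT, 670 of 8151 in S2KO and 810 of 7469 in S3KO. The medians of the members' late responses were 0.10 (S2WT), -0.09 (S3WT), 0.01 (S2KO), 0.03 (S3KO) and -0.07 (U0126), beside medians over all probes of 0.02, -0.00, -0.03, -0.00 and -0.01.

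The direction of the class medians differed by line. In S2WT 13 of 18 cytosolic (median 0.12) and 26 of 37 mitochondrial probes (0.19) had positive late responses and 12 of 28 factor probes (-0.06) did. In S3WT 6 of 17 cytosolic (-0.06) and 6 of 37 mitochondrial (-0.13) were positive, against 17 of 28 factor probes (0.05). In U0126 5 of 18 cytosolic (-0.24) and 10 of 38 mitochondrial (-0.11) were positive, against 15 of 29 factor probes (0.04). In S2KO it was 12 of 17 (0.19), 17 of 38 (-0.03) and 13 of 29 (-0.01), and in S3KO 11 of 18 (0.02), 23 of 38 (0.03) and 15 of 28 (0.01). The cytosolic 0 h mean, which each late response subtracts, was 0.12 in S2WT and 0.32 and 0.30 in S3WT and U0126; its part in these signs was not tested.

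**Figure D3:**
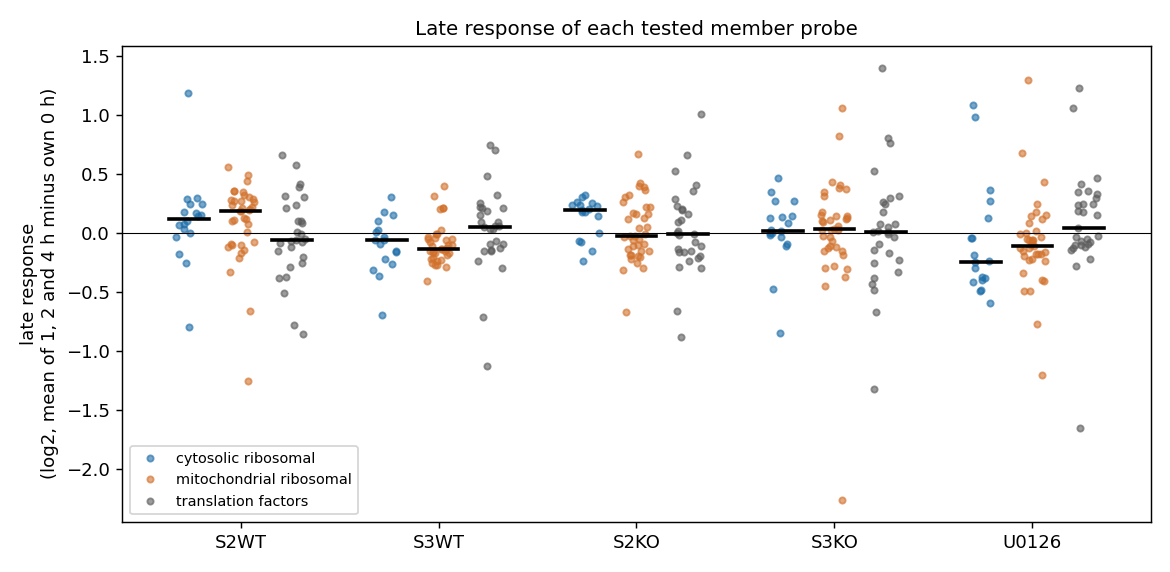
Late response (log2, mean of 1, 2 and 4 h minus own 0 h) of each tested probe by line and class; each point is a probe and the black bar the class median. The medians lie between -0.24 and 0.19, and no point is called.

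Among the members with the smallest p in each line, several had 1 of the 3 untreated arrays far from the other two. In S2WT they were Eif2b2 (0.66 ± 0.20, SE, adjusted p = 0.202), higher than the untreated mean on 9 of 9 arrays, and Rps27l (1.18 ± 0.47, adjusted p = 0.427). In S3WT they were Rpl36a (-0.69 ± 0.22, adjusted p = 0.227) and Eif1ax (0.75 ± 0.28, adjusted p = 0.457). Rpl36a read 1.51, 0.45 and 0.03 at 0 h and between -0.18 and 0.25 on the treated arrays. In S2KO they were Eif2b1 (1.01 ± 0.29, adjusted p = 0.0995), with 0 h values of -0.40, -2.67 and 0.17, and Mrps5 probe 1124 (0.67 ± 0.25, adjusted p = 0.339), with 0 h values of -0.20, -1.52 and -0.23. The other Mrps5 probe, 191, did not follow it (r = -0.10 over 68 arrays).

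In S3KO the smallest p belonged to Mrpl49 (1.06 ± 0.38, SE, adjusted p = 0.178) and Eif2ak4, the kinase GCN2 that phosphorylates eIF2 when amino acids are short (-1.32 ± 0.48, adjusted p = 0.179). Mrpl49 was measured on 2 of the 0 h arrays, at -2.63 and 0.17, and Eif2ak4 read 0.69, 3.13 and -0.37 there. In U0126 they were Eef1a1 (1.06 ± 0.37, adjusted p = 0.397), whose 0 h values were -0.30, -0.34 and -3.20, and Rplp2 (-0.50 ± 0.20, adjusted p = 0.548), whose 3 untreated values had a mean of 1.04 against 0.55 on 9 treated arrays.

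None of the regulators and central factors chosen for description passed the test late after TGF-β. Rps6 had late responses of -0.26 ± 0.22, 0.15 ± 0.22, -0.24 ± 0.22, -0.01 ± 0.23 and -0.25 ± 0.22 in S2WT, S3WT, S2KO, S3KO and U0126 (SE). Eif4ebp2, which holds back the cap-binding factor eIF4E until mTOR phosphorylates it, had 0.32 ± 0.24, 0.06 ± 0.24, 0.23 ± 0.24, 0.01 ± 0.24 and -0.03 ± 0.24 in the same order; the S2WT value includes a reading of 2.09 on 1 array at 1 h. Eef2k, which inactivates eEF2, had -0.12 ± 0.53 in S2WT, -0.14 ± 0.53 in S2KO, -0.48 ± 0.54 in S3KO and 0.33 ± 0.53 in U0126, and could not be tested in S3WT, where 1 of 3 arrays at 0 h measured it. Eef1a1 had -0.08 ± 0.35, -0.30 ± 0.35, -0.02 ± 0.35 and 0.81 ± 0.36 in S2WT, S3WT, S2KO and S3KO. Eif2ak3, the kinase PERK of the unfolded protein response, had -0.06 ± 0.48, -0.15 ± 0.48, 0.66 ± 0.48, -0.01 ± 0.49 and 0.16 ± 0.48 by probe 7722 and -0.51 ± 0.67, 0.32 ± 0.57, -0.24 ± 0.69, 0.76 ± 0.68 and 0.30 ± 0.59 by probe 1710, in the order of lines given first.

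Eif2b2 was the single member called when all 15 untreated arrays served as the common baseline. Against that baseline its late response in S2KO was 0.72 ± 0.13 (SE, adjusted p = 0.000248; 2.49% of all probes called), and it was 0.40 ± 0.13 in S2WT (adjusted p = 0.117; 1.27% called), 0.11 ± 0.13 in S3WT (0.146%), -0.13 ± 0.14 in S3KO (0.0141%) and 0.09 ± 0.13 in U0126 (0.782%). In those 4 lines 0 members were called, and 9, 8, 4 and 7 had an unadjusted p under 0.05. The probe read 0.97, 1.28 and 0.24 at 1 h in S2KO, 1.21, 0.80 and 1.46 at 2 h, and 1.48, 1.09 and 0.66 at 4 h, and 1.05, 0.53 and 0.26 at 0 h. In S2WT it read -0.08, 0.58 and -0.36 at 0 h, and between 0.32 and 0.96 on the 9 later arrays, of which the 2 h and 4 h ones fell between 0.68 and 0.80. The treated S2KO arrays thus lie highest of the lines, but the S2KO 0 h arrays are also high, and against them the response was 0.41 ± 0.20 (adjusted p = 0.604).

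Without subtraction of any 0 h group, many members were called on the treated arrays alone: 36 of 85 in S2KO (26.6% of all probes), 28 of 84 in S2WT (23.1%), 18 of 85 in U0126 (14.3%), 16 of 85 in S3WT (8.62%) and 6 of 86 in S3KO (1.82%). Most were above 0, namely 30, 23, 16, 15 and 5 in that order. Rplp2, Rpl9, Rpl38, Mrpl17 and Mrpl57 were called in all 5 lines and Eif2b2 in all but S3KO. Rplp2, Rpl9 and Mrpl57 were also above 0 on 12 or 13 of the 15 untreated arrays. The differences between lines on treated arrays alone held 0 called members: 0 of 83 for S2KO against S2WT (0.326% of all; 5 unadjusted), 0 of 84 for S3KO against S3WT (0%; 6) and 0 of 83 for U0126 against S2WT (0%; 6).

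At 0.3 h no member was called in any line. In S2WT 0 of 84 members and 0 probes of the array were called, with 3 members at an unadjusted p under 0.05; the smallest p belonged to Mrps18b probe 1523 (-1.61 ± 0.75, SE) and Mrpl28 (0.56 ± 0.26). In S3WT 0 of 84 were called (0.152% of all; 5 unadjusted), the smallest p being those of Mrpl19 probe 104 (0.64 ± 0.20, adjusted p = 0.352) and Rpl36a (-0.83 ± 0.27). In S2KO it was 0 of 85 (0.0235%; 1), with Mrpl17 (-0.52 ± 0.24) and Mrps5 probe 1124 (0.51 ± 0.30), in S3KO 0 of 84 (0.845%; 10), with Mrpl49 (1.12 ± 0.44) and Eif2a probe 8657 (-1.84 ± 0.73), and in U0126 0 of 87 (0.0355%; 1), with Eef1a1 (0.98 ± 0.43) and Mrpl54 (1.67 ± 1.01). By the labels the S3KO arrays at 0.3 h had no TGF-β in either channel. Against the 15 pooled untreated arrays 0 members were called at 0.3 h too, with 8 at an unadjusted p under 0.05 in S3KO (0.0648% of all called), 3 in U0126 (0.5%), 3 in S2KO (0.405%), 3 in S3WT (0.196%) and 1 in S2WT (0.0657%). The member medians lay between -0.01 and 0.01 in S3WT, S2KO, S3KO and U0126 and at 0.13 in S2WT.

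Between 1 and 4 h of TGF-β, 2 factor probes rose in S2KO, Eif1a and Eif2ak3, of 86 members tested and 0.753% of all probes called. Eif1a, a scanning factor that places the first tRNA, rose by 0.87 ± 0.20 on probe 6979 (SE, adjusted p = 0.020). It read -0.66, -0.24 and -0.21 at 1 h and 0.77, -0.15 and 0.88 at 4 h, so replicates 1 and 3 at 4 h lie above every earlier S2KO array and replicate 2 among them. Its second probe, 4099, gave 0.67 ± 0.25 (adjusted p = 0.286), from -0.92, 0.21 and -0.78 to 0.32, -0.27 and 0.47, and both probes correlated at r = 0.39 over 74 arrays. Leaving out an array, the estimate for probe 6979 ran from 0.68 to 1.20 and was no longer called without replicate 1 at 1 h or without replicate 1 or 3 at 4 h. With arrays scaled to a common spread it was 0.65 (adjusted p = 0.145), and with S2KO alone in the fit the same 0.87 had an adjusted p of 0.781.

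The call of Eif2ak3 rests on 1 value. Probe 7722 read 0.08, -0.11 and -0.10 at 1 h and 0.71, 0.11 and 6.29 at 4 h (difference 2.41 ± 0.59, SE, adjusted p = 0.036), and without replicate 3 at 4 h the difference was 0.45 ± 0.24 (adjusted p = 0.767). It was also not called without any single one of the 1 h arrays. Its second probe, 1710, gave 0.17 ± 0.79. Probe 7722 was above 0 on each of the 15 arrays at 4 h, with a median of 0.26, and on 3 of 14 at 1 h. Its differences in the other lines were 0.42, 0.35, 0.21 and 0.34 in S2WT, S3WT, S3KO and U0126, none of them called. Probe 1710 was above 0 on 11 of 15 arrays at 4 h, with a median of 0.08, and on 7 of 13 at 1 h.

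As a group, 66 of 86 members were higher at 4 h than at 1 h in S2KO, with a median of 0.17 beside 0.02 over all probes. Factors were higher on 23 of 29 probes (median 0.27), cytosolic ribosomal proteins on 14 of 18 (0.24) and mitochondrial ones on 29 of 39 (0.13). The array medians of the factor class show which arrays did this: 0.10, -0.08 and -0.04 at 1 h and 0.38, -0.06 and 0.37 at 4 h. The spread of all probes (median absolute deviation) on these arrays was 0.66, 0.51 and 0.38 at 1 h and 0.63, 0.52 and 0.63 at 4 h, beside 0.45 on the median array; its part in the result was not tested.

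Among genes of ribosome assembly, from a list of 21 genes on 25 probes, 2 were called in the same comparison: Nolc1, a nucleolar chaperone, rose by 1.21 ± 0.31 (SE, adjusted p = 0.044) and Nip7, needed for pre-rRNA processing, by 0.87 ± 0.20 (adjusted p = 0.024), and 18 of 25 were positive with a median of 0.37. In the other lines 0 of the 25 were called. There 21 were positive in S2WT (median 0.27; 5 at an unadjusted p under 0.05), 20 in U0126 (0.16; 3), 17 in S3WT (0.11; 0) and 13 in S3KO (0.03; 0). Nolc1 read -0.47, -0.45 and -0.29 at 1 h and 0.32, 0.79 and 1.32 at 4 h. Nip7 read -0.25, 0.37 and 0.19 and then 1.15, 0.57 and 1.20. Myc, a transcription factor known to drive ribosome production, rose by 1.78 ± 0.37 (adjusted p = 0.011), from 0, -0.30 and -0.35 to 1.67, 0.55 and 2.45. Its S2KO 0 h values were 0.52, 0.26 and 0.64. Myc comes from another list, of mTOR and stress control of translation, where 5 of 11 probes were positive (median -0.17). In S3WT Myc read 0.03, 0.86 and 0.99 at 1 h and 0.07, 1.08 and 0.36 at 4 h. In S2WT Nolc1 read -0.19, 0.27 and 0.12 at 1 h and 0.50, 0.93 and 0.91 at 4 h. Myc there read 0.45, 0.30 and 0.41 and then 1.09, 1.14 and 1.27, and neither gene was called. Without S2KO replicate 3 at 4 h none of the 3 was called in S2KO (0.95, 0.75 and 1.33, adjusted p = 0.384, 0.195 and 0.191), and with S2KO alone in the fit or arrays scaled to a common spread none was called either.

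In the other lines no member was called between 1 and 4 h: 0 of 84 in S2WT (0.0231% of all; 7 at an unadjusted p under 0.05), 0 of 86 in S3WT (0.0576%; 4), 0 of 86 in S3KO (0.19%; 4) and 0 of 86 in U0126 (0.139%; 5). The smallest p belonged to Mrps11 (0.75 ± 0.25, SE) and Eif1ax (0.94 ± 0.34) in S2WT, to Eif1a probe 6979 (0.53 ± 0.20, adjusted p = 0.646) and Mrps5 probe 191 (-1.75 ± 0.70) in S3WT, to Mrpl53 (-1.60 ± 0.49, adjusted p = 0.253) and Rplp2 (0.59 ± 0.27) in S3KO, and to Rpl21 (1.03 ± 0.34) and Eif1ax (0.80 ± 0.34) in U0126. The Mrps5 value includes a reading of -6.07 on 1 array. In S3WT the cytosolic class ran the other way from S2KO, with 1 of 18 probes higher at 4 h (median -0.12); whether the lines differ in this comparison was not tested.

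**Figure D4:**
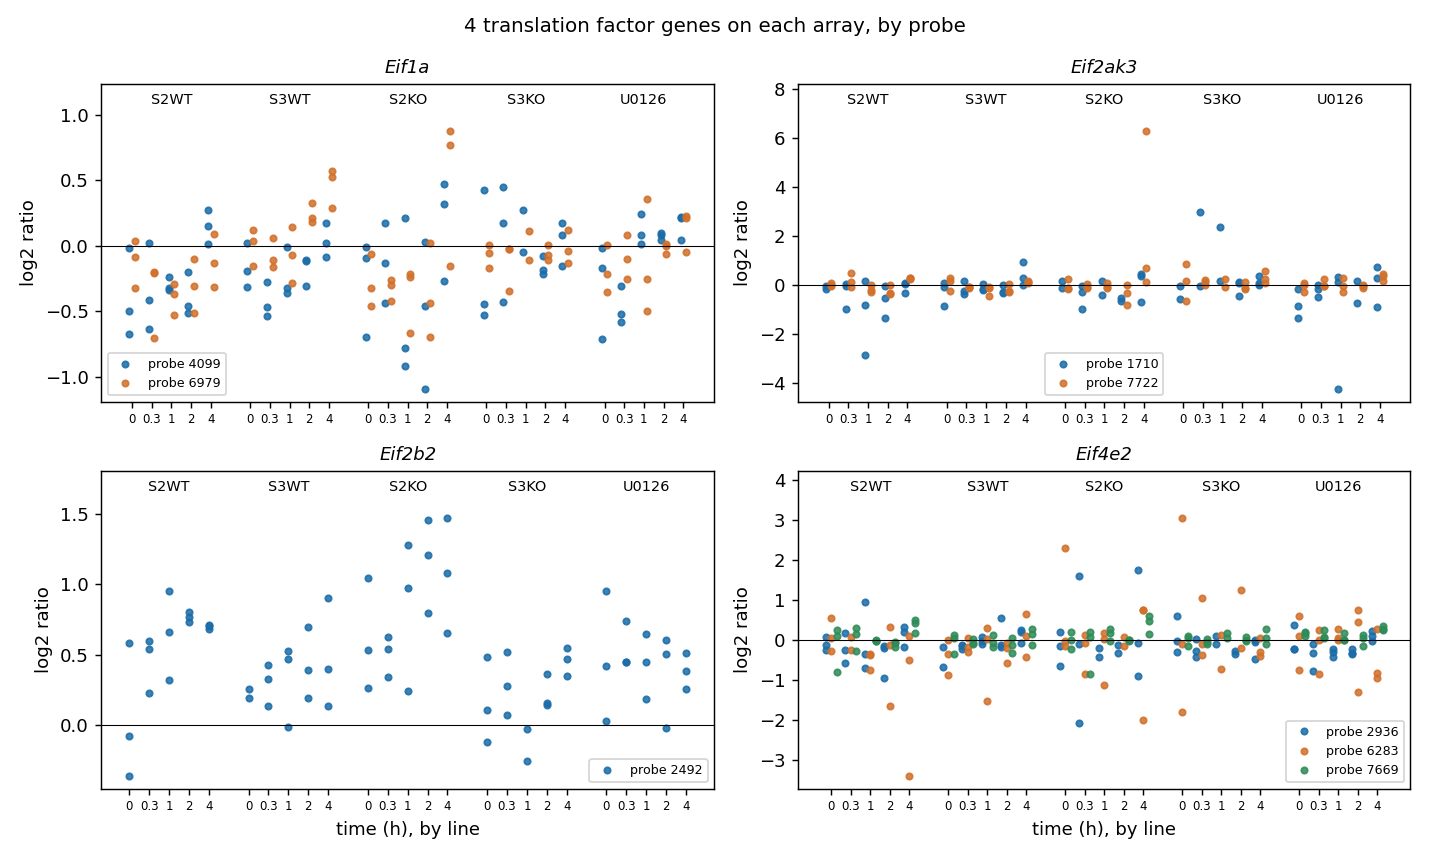
Log2 ratios (array median = 0) of Eif1a, Eif2ak3, Eif2b2 and Eif4e2 on each array, by time in hours within each line; points are arrays and colours are probes of the gene. The Eif2ak3 value of 6.29 in S2KO at 4 h stands alone, and Eif4e2 probe 6283 scatters more widely than its other two probes.

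Differences between lines in the late response were tested as differences of responses, and no member was called. For S2KO against S2WT it was 0 of 82 (0.0386% of all probes; 4 at an unadjusted p under 0.05), with the smallest p for Mrpl15 (-0.75 ± 0.29, SE, adjusted p = 0.557) and Eif2b1 (1.06 ± 0.41). For S3KO against S3WT it was 0 of 79 (0.126%; 9), with Rpl38 (0.61 ± 0.22, adjusted p = 0.299) and Rplp2 (0.69 ± 0.28, adjusted p = 0.404). For U0126 against S2WT it was 0 of 82 (0.0252%; 8), with Rplp2 (-0.79 ± 0.28, adjusted p = 0.728) and Eif2b2 (-0.74 ± 0.28, adjusted p = 0.737).

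In the comparison of U0126 with S2WT 4 of 18 cytosolic (median -0.34) and 5 of 36 mitochondrial probes (-0.29) were positive, beside a median of -0.04 over all probes, and 16 of 28 factor probes were (0.09). The 0 h arrays stand far apart in these lines: for Rplp2 the 0 h mean was 1.04 in U0126 and 0.37 in S2WT, while the treated means were 0.55 and 0.66. For Rpl38 in S3KO and S3WT the 0 h means were -0.03 and 0.56 and the treated means 0.32 and 0.30. In both genes the lines lay farther apart on the untreated than on the treated arrays.

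A group of cytosolic ribosomal probes moved together from array to array. Rpl38, Rpl9, Rps15a, Rplp2 and Rpl8 gave all 8 of the 153 cytosolic pairs with r above 0.5: 0.83 for Rpl38 with Rpl9, 0.80 for Rpl9 with Rps15a, 0.73 for Rpl38 with Rplp2 and with Rps15a (74 arrays). The pair of Rpl38 and Rpl9 correlated at 0.93 over the 15 untreated arrays and at 0.79 over the 44 treated ones. This pair thus moved together on arrays without TGF-β too. Rpl9 with Rplp2, Rpl8 with Rpl9 and Rpl38 with Rpl8 were looser over the treated arrays (0.48, 0.41 and 0.36) than over the untreated ones (0.79, 0.73 and 0.74). The remaining pairs gave 0.52 to 0.80 over the treated arrays. The mean over the 5 probes was above 0 on all arrays of S2WT, S3WT, S2KO and U0126. It was above 0 on 11 of 14 S3KO arrays and fell to -0.21 at its lowest. On S3KO 0 h replicates 1 and 2 and 1 h replicate 2 Rpl38, Rpl9 and Rplp2 were all below 0, and Rps15a and Rpl8 read between -0.14 and 0.21. The 5 genes were chosen for this correlation, and it is given as a description.

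**Figure D5:**
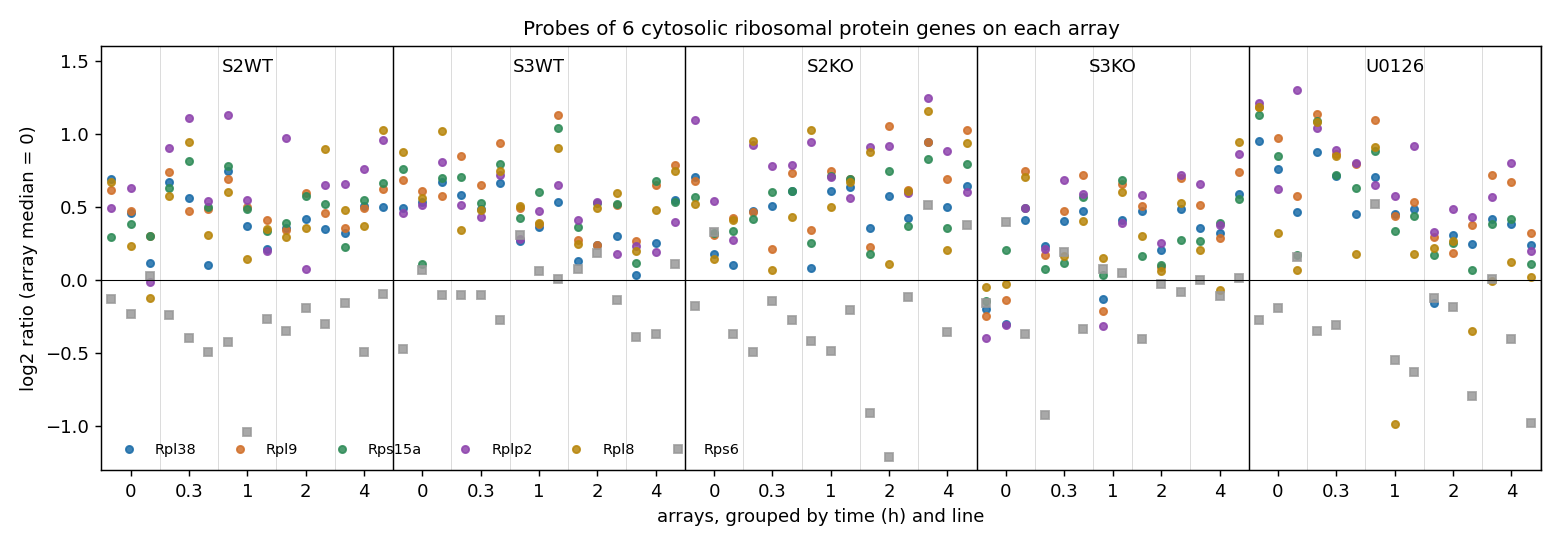
Log2 ratios (array median = 0) of Rpl38, Rpl9, Rps15a, Rplp2, Rpl8 and, for contrast, Rps6 (squares) on each of 74 arrays, grouped by line and time in hours; each point is an array. The first 5 lie above 0 on most arrays and fall on 3 S3KO arrays, and Rps6 lies below 0 on most arrays.

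Against the mean of these 5 probes, 12 other cytosolic probes had a median r of 0.20, mitochondrial probes 0.25 (7 of 38 above 0.5), factor probes 0.04 and all 8193 probes -0.02, with 197 above 0.5. The 20 probes most like that mean held no member. They included Atp6v0e, a proton pump subunit (r = 0.81), Ndufa7, Cox7a2, Uqcr10 and Ndufb8 of the respiratory chain (0.78, 0.73, 0.73 and 0.71), Ubl5 (0.77), and Sec61g and Sec61b of the protein translocation channel (0.73 and 0.71), each measured on 73 or 74 arrays; these were named after their values were seen. The mean of the 5 probes also followed the spread of all probes on an array (r = 0.59 over 74 arrays), and the part of that spread was not tested.

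Within classes, agreement across arrays was weak. The median correlation of a pair was 0.09 for cytosolic, 0.05 for mitochondrial and 0.02 for factor probes, and 0.25, 0.13 and 0.10 when only probes measured on all arrays were taken, beside 0.02 for all 2244 such probes. In the mitochondrial class 14 pairs exceeded 0.5, led by Mrpl27 with Mrpl55 (0.68), Mrpl15 with Mrps36 (0.67) and Mrpl42 with Mrps14 (0.64). In the factor class 3 did: Eif4a3 with Eif4h (0.71), Eif2b2 with Eif4h (0.63) and Eif1ad with Eif4a3 (0.54). Probes with neighbouring numbers on the platform correlated more over the whole array, with a median r of 0.17 for numbers 1 apart, 0.11 for 2 to 10 apart and 0.02 for over 1000 apart. In the mitochondrial class 3 of the 14 pairs had numbers within 100 of each other, among them Mrpl27 with Mrpl55 and Mrpl42 with Mrps14. These 3 came from 22 mitochondrial pairs that close, and the other 11 from 758 pairs farther apart. None of the 8 cytosolic pairs had numbers within 100 of each other. Only 1 of all 153 cytosolic pairs lay that close, so the cytosolic count cannot show whether neighbouring numbers played a part. The numbers of Rpl38 and Rpl9, the cytosolic pair with the highest r, were 120 apart. The part of probe numbers in these correlations was not tested.

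Probes for the same gene correlated weakly. Over the 12 pairs of probes of a shared gene r ran from -0.19 (Mrpl38) to 0.42 (Eif4e2 probes 2936 and 7669). It was 0.39 for Eif1a, 0.32 for Mrpl19, 0.18 for Eif2a, 0.12 for Eif2ak3, -0.00 for Mrpl32, -0.04 for Mrps18b, -0.10 for Mrps5 and -0.15 for Mrpl39. Which probe of such a pair measures the gene cannot be told from these values.

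Other genes of translation were rarely called late after TGF-β. Of 12 or 13 tested probes for aminoacyl-tRNA synthetases, which load tRNAs, 0 were called in any line (3 at an unadjusted p under 0.05 in S2WT, 1 each in S3WT and S2KO, 0 in S3KO and U0126), the smallest p being that of Lars in S2WT (0.49 ± 0.14, SE, adjusted p = 0.151). No probe was called of 5 for termination and ribosome-associated factors, 1 to 4 for mitochondrial translation factors (0 unadjusted in both lists) or 9 to 11 for mTOR and stress control (1 each in S2WT, S3KO and U0126); in the last list Myc gave 0.73 ± 0.30 in S2WT (adjusted p = 0.477). Of 25 ribosome assembly probes 1 was called, Pes1 in S3KO (1.38 ± 0.37, adjusted p = 0.042), and it rests on the 0 h value of -3.79 in replicate 2, without which it was 0.19 ± 0.29 (adjusted p = 0.999). Hbegf, a growth factor induced by TGF-β, rose by 2.27 ± 0.37 in S2KO (adjusted p = 0.0011) and by 1.76 ± 0.37 in S2WT (adjusted p = 0.018) over the same arrays.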

How the data were processed

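The values are log2 ratios of both channels per array, as deposited by the authors; the sources used here do not state dyes, background correction or scaling, and signal over background is unknown, so the number of arrays limits precision. Values above 16.6 (8 among these genes, 1344 in all) were set missing, and each array was centred on its median. Group means over all 74 arrays were fitted by least squares in R 4.3.3 and variances moderated with limma 3.58.1; a probe needed 2 arrays per group, except where leaving out arrays left 1. The scripts were tested on simulated data. Symbols came from the platform annotation (7348 probes with 1 symbol, 399 with several, 1229 with none); 86 of 87 matched RefSeq by gene ID. The members, gene lists and tests were chosen with earlier results of these data known. Named are called members (at most 10 per comparison), otherwise the 2 of smallest p, fixed regulators, and the 2 most and 2 least variable probes per class. Alternatives changed centring, scaling, filter, fit, probe averaging, baseline and replicate block. Added after seeing the data: leaving out 3 S3KO arrays, and pooling 0 h arrays without S3KO.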

Additional observations from a re-analysis of the deposited data

Results flagged for a closer look

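Eif4e2, a relative of the cap-binding factor, had late responses of opposite sign in S3KO and S3WT on probe 2936, 1 of its 3 probes. On it 0 of 7 treated S3KO arrays and 9 of 9 treated S3WT arrays lay above the 0 h mean of their line. The late responses were -0.26 and 0.48, and the difference of -0.74 ± 0.60 (SE) did not pass the test (adjusted p = 0.802 in limma). Of the S3WT 0 h arrays 2 measured the probe, at -0.17 and -0.66, and the treated S3WT arrays, from -0.18 to 0.56, overlapped them. Over all arrays probe 2936 correlated at r = -0.10 with probe 6283 and 0.42 with probe 7669.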

How the results depend on the processing

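On treated arrays without subtraction of 0 h the members called were 36 in S2KO, 28 in S2WT, 18 in U0126, 16 in S3WT and 6 in S3KO, against 0 in each late response. In S2KO 1 member was called late with all 0 h arrays pooled, 1 with those of the lines other than S3KO pooled and 1 with values at the ceiling kept. For 4 h against 1 h in S2KO, 7 members were called without centring, 0 with arrays scaled, 0 with that line alone in the fit and 1 with probes of a gene averaged, against 2; in S3KO scaling gave 1. At 0 h, members called without centring were 3 in S3WT, 4 in S2KO and 6 in U0126; scaling gave 3 in S2WT; fitting the line alone gave 0 in S2KO and 0 in S3KO; S3KO also had 0 over fully measured probes and 1 without its 3 arrays that stood apart. That leaves 1 array at 0 h, assumed to vary like the other groups, and its single Mrpl49 reading of 0.173 stands in place of -1.23. The cause of these changes was not tested. Shares of all probes called stand above for the main fits, the treated arrays alone and all 0 h arrays pooled. For the other settings they are not given, so those counts describe the processing and not these genes. Without centring, a shift of a whole array moves every probe on it.

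Leaving out single arrays, late counts ran from 0 to 1 in S2WT, S3WT and S2KO, and from 0 to 4 in S3KO and 0 to 3 for S3KO against S3WT, the highest without S3KO 0 h replicate 3, which also gave 3 at 0.3 h (range 0 to 3). For 4 h against 1 h they ran from 0 to 3 in S2KO and 0 to 1 in S3KO and U0126. At 0 h they ran from 5 to 9 in U0126, 2 to 11 in S2KO, 2 to 3 in S3WT and 0 to 2 in S3KO. Other counts stayed at 0. The share of all probes called in each of these fits is not given, so the ranges do not set these genes apart from the rest. With the replicate number as a block, 2 members were called for 4 h against 1 h in S2KO and 0 in the other late, 0.3 h and 4 h comparisons, as without it; the 0 h tests against 0 were not run with it. The labels do not say that a number marks shared material. Same-numbered arrays of a line correlated at -0.11 to 0.29 in their deviations from group means (medians 0.02 to 0.10, and -0.08 to -0.02 for different numbers). As a hint from the data that numbers share something, 13 of 15 arrays in S2KO and S3WT, 11 of 15 in S2WT and U0126 and 10 of 14 in S3KO correlated best with their own number.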
